A study of Rattus norvegicus with 6 samples.

Results

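The genes described here encode acute phase plasma proteins of the liver and a feedback inhibitor of the pathway that induces them: Crp, Apcs, A2m, Serpina3n, Itih3, Itih4, Orm1, Hp, Lcn2 and Socs3. They are 10 of the 14217 genes that the array platform's annotation names singly, leaving out entries with several gene symbols. Members were all probe sets, the groups of short probes that measure 1 transcript on an Affymetrix array, whose annotation gave exactly 1 gene symbol from this list. Each gene had 1 such probe set, so 10 of 31042 tested probe sets are members. The rule uses no measured value, although the list was drawn up with earlier results of these data known. Socs3 acts inside the cell and is not itself a plasma protein. The other 9 are secreted.

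Liver RNA came from male Wistar rats that were 6 weeks old and weighed about 150 g at purchase. The rats were first trained for 4 days to take the control diet, labelled 15P, within a daily feeding window. The control group then ate 15P for 8 hours and the low-protein group ate an isoenergetic diet, labelled 5P, for 8 hours, and all livers were taken after a further 16 hours of starvation. Each group has 3 arrays, and since nothing in the labels states that each array is a separate animal, the p-values reflect no more than the spread among these arrays, which may be technical. All groups share the training, the strain, the sex and the starvation period. The comparison asks how liver expression differed after a single feeding period low in protein.

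The acute phase response is the rapid change in the plasma proteins that the liver secretes after infection or injury. Cytokines of the interleukin-6 family act through the receptor chain gp130, the JAK kinases and the transcription factor STAT3, and interleukin-1 acts through NF-kB, with C/EBP factors and glucocorticoids adding to both. Positive acute phase proteins rise, negative ones such as albumin fall, and SOCS3 closes the loop by inhibiting the receptor complex. In rats A2m is the strongly inducible member, while C-reactive protein is abundant in plasma without inflammation.

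The intensities are RMA values, on which background, array differences and probe effects have been adjusted, and they are given below as log2. The array medians ran from 33.3 to 34.2 on the linear scale. Intensities of different probe sets depend on their probes and are not compared as amounts of RNA. Hepatocyte markers were bright, with a median log2 intensity of 13.22 over 10 genes. Of the markers of other cell types, the red blood cell genes Hbb and Alas2 were brighter on every low-protein array than on any control array, with log2 fold changes of 0.48 and 0.43. The groups overlapped for the other 3 of the 5 red blood cell markers, with Slc4a1 at 0.14, Ahsp at 0.32 and Epb42 at -0.06. The summed linear intensity of the 5, most of which was Hbb, was 2865 to 3123 on the control arrays and 4053 to 4323 on the low-protein arrays. The part of blood in the results that follow was not tested. No gene of the 8 marker lists passed the test (limma). At an unadjusted p under 0.05 (limma), 2 red blood cell markers were higher. At that level 3 hepatocyte and 2 cholangiocyte markers were lower, with 0 for each other type. Over all probe sets 7.83% were higher and 7.58% lower at that level. The hepatocyte genes were Ass1, Fah and Cps1, with log2 fold changes of -0.75, -0.25 and -0.23 (-0.70 at the dimmer second probe set of Cps1). By sign 4 of the 10 hepatocyte markers were higher and 6 lower, with Alb at 0.002. The median log2 fold changes were 0.32 for red blood cells, -0.11 for hepatocytes, -0.02 for cholangiocytes, 0.12 for Kupffer cells and macrophages, 0.03 for neutrophils, 0.09 for T and B cells, -0.07 for endothelial cells and 0.05 for stellate cells and fibroblasts. In bulk tissue, fewer cells of a type and less RNA per cell cannot be told apart.

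None of the 10 genes passed the test between diets (limma, Benjamini-Hochberg adjusted p under 0.05), where 0.132% of all probe sets did, 41 in number. The smallest adjusted p of the 10 genes was 0.131, for A2m. An unadjusted p under 0.05 was reached by 2 members, A2m and Crp, both with lower intensities in low-protein livers. Over all probe sets, 7.58% were lower and 7.83% higher at that unadjusted level. The groups did not overlap for 4 members, against 21.6% of all probe sets: Crp, A2m and Itih4 were lower (background 9.12%) and Apcs was higher (background 12.5%). By sign alone 4 members were higher and 6 lower. Their median log2 fold change was -0.08, beside 0.03 over all probe sets.

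**Figure D1:**
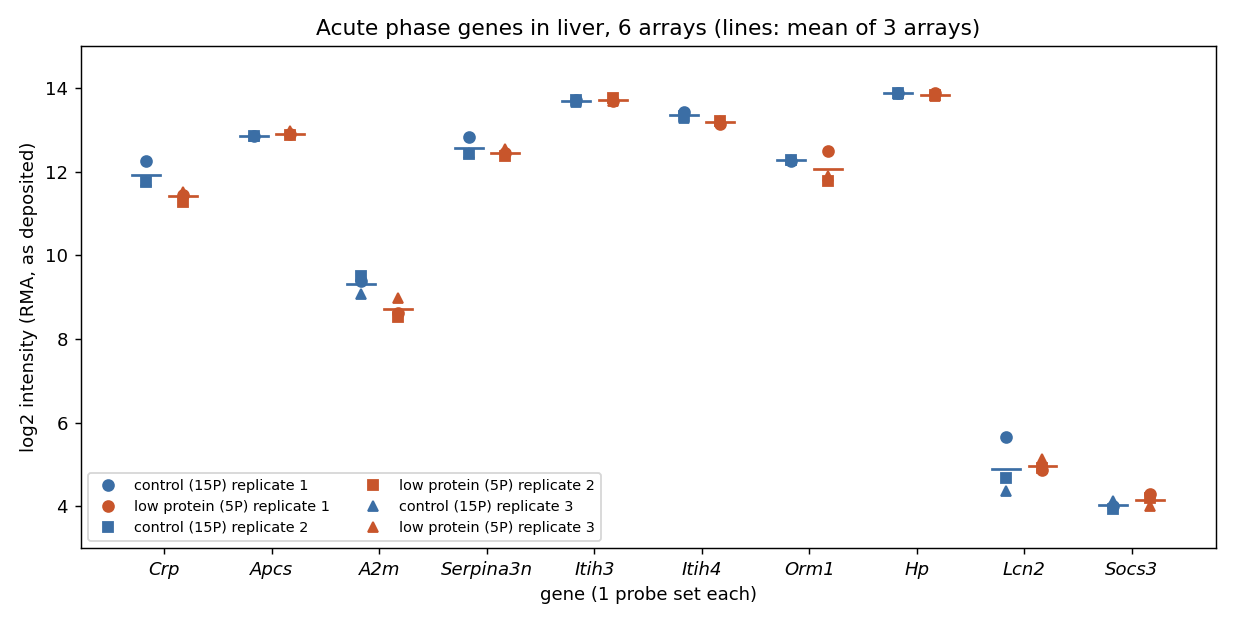
Log2 intensity (y axis) of the 10 genes (x axis) on 3 control arrays (blue) and 3 low-protein arrays (orange), with symbols for replicates 1 to 3 and a line for each mean. Crp, A2m and Itih4 have low-protein points below all control points, Lcn2 has its highest point on control replicate 1, and Hp and Itih3 are nearly flat.

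**Figure D2:**
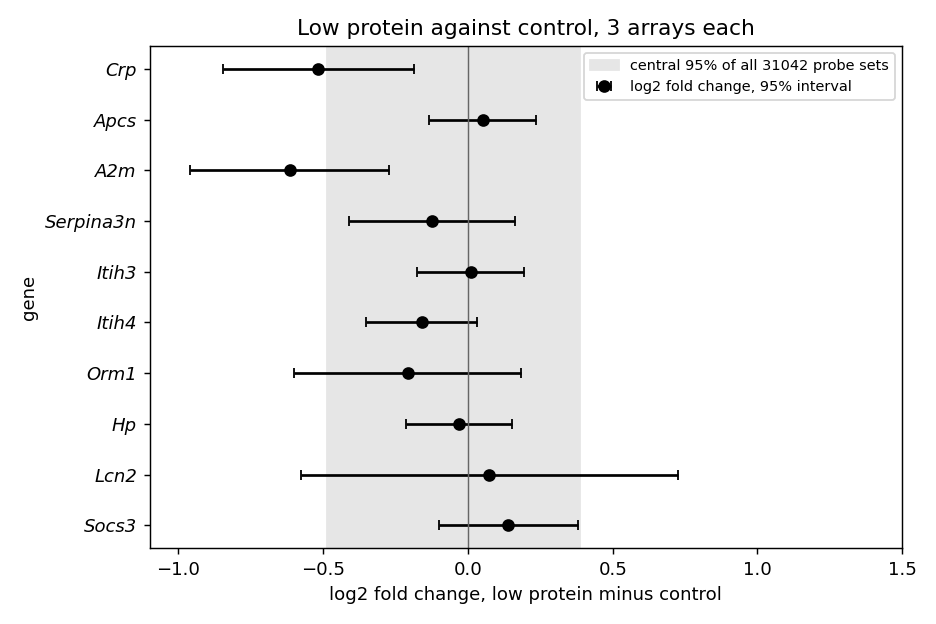
Log2 fold change, low protein minus control (x axis), for each gene (y axis), with its 95% interval from the moderated fit. The grey band holds the central 95% of all 31042 probe sets (-0.49 to 0.39). Only the intervals of Crp and A2m leave out 0, and both points lie to the left of the band.

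The pentraxins are ring-shaped plasma proteins that bind ligands on microbes and dying cells. Crp, the C-reactive protein gene, read 12.24, 11.76 and 11.77 (log2 intensity) on control replicates 1 to 3 and 11.43, 11.27 and 11.51 on low-protein replicates 1 to 3. Every low-protein array was below every control array, and control replicate 1 stood above the other controls. The group means were 11.92 ± 0.28 and 11.40 ± 0.12 (SD, n = 3 each). The log2 fold change was -0.52 (SE 0.144, 95% interval -0.85 to -0.19), or 1.43-fold lower, which missed the threshold (limma, adjusted p = 0.164). Without control replicate 1 the difference was -0.36.

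Apcs, the serum amyloid P gene and the other pentraxin, was nearly level. It read 12.85, 12.84 and 12.86 in controls and 12.89, 12.86 and 12.96 in low-protein livers. The low-protein arrays all lay above the controls, by a margin far smaller than that of Crp. Its log2 fold change was 0.05 (SE 0.081, 95% interval -0.13 to 0.24, adjusted p = 0.807). The interval limits a difference to between 0.911 and 1.18 times the control.

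The protease inhibitors of the list are A2m, which traps proteases of many classes inside its own structure, and Serpina3n, an inhibitor of serine proteases. A2m read 9.39, 9.49 and 9.08 (log2) in controls and 8.62, 8.53 and 8.98 in low-protein livers. The groups did not overlap, although control replicate 3 and low-protein replicate 3 lay close together. With means of 9.32 ± 0.21 and 8.71 ± 0.24 (SD, n = 3 each), the log2 fold change was -0.62 (SE 0.150, 95% interval -0.96 to -0.27), a 1.53-fold lower intensity. This also missed the threshold (limma, adjusted p = 0.131, and 0.0817 to 0.299 over 18 alternative settings). Leaving out 1 array at a time gave -0.75 to -0.52. The difference of A2m was larger in size than that of 98.0% of all probe sets, and that of Crp larger than 96.8%.

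Serpina3n read 12.83, 12.42 and 12.45 in controls and 12.44, 12.37 and 12.53 in low-protein livers. The groups overlapped, and control replicate 1 was again the highest array. Low protein minus control gave a log2 fold change of -0.12 (SE 0.125, 95% interval -0.41 to 0.16, adjusted p = 0.679), and it was 0.008 without control replicate 1.

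Itih3 and Itih4 encode heavy chains of the inter-alpha-trypsin inhibitor family, proteins that bind and stabilise hyaluronan in the matrix or circulate on their own. Itih3 read 13.71, 13.70 and 13.66 in controls and 13.68, 13.75 and 13.68 in low-protein livers, with overlapping groups. Its log2 fold change was 0.01 (SE 0.081, 95% interval -0.18 to 0.20), with the sign turned to -0.018 when arrays were centred on their medians. Itih4 read 13.42, 13.32 and 13.29 in controls and 13.14, 13.21 and 13.20 in low-protein livers. All 3 low-protein arrays were below the controls, by little: the log2 fold change was -0.16 (SE 0.084, 95% interval -0.35 to 0.03, adjusted p = 0.405).

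The carriers of the list bind small ligands or haemoglobin. Orm1, the alpha-1-acid glycoprotein that carries drugs and lipids, read 12.26, 12.26 and 12.27 in controls and 12.49, 11.79 and 11.89 in low-protein livers. The 3 control arrays were almost equal, while the low-protein arrays lay on both sides of them, with replicate 1 above and replicates 2 and 3 below. The SD was 0.38 in low-protein livers, and the range was 0.71 against 0.0085 in controls. The log2 fold change was -0.21 (SE 0.171, 95% interval -0.60 to 0.18, adjusted p = 0.603). Leaving out low-protein replicate 1 gave -0.43, and leaving out replicate 2 of that diet gave -0.07.

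Hp encodes haptoglobin, which captures free haemoglobin. It read 13.87, 13.88 and 13.84 in controls and 13.86, 13.83 and 13.81 in low-protein livers, with overlapping groups. The log2 fold change was -0.03 (SE 0.080, 95% interval -0.21 to 0.15, adjusted p = 0.895), and 0.019 when arrays were centred on their 75th percentiles. The interval limits a difference to between 0.863 and 1.11 times the control. Only 9 probe sets on the array were brighter, and the highest intensity on any array was 21668, beside 14349 to 15115 for Hp.

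Signals this bright varied little. The residual SD between arrays of a diet was 0.025 for Hp, 0.035 for Apcs, 0.036 for Itih3 and 0.053 for Itih4, beside a median of 0.061 over the 88 probe sets at least as bright as Apcs and 0.133 over all probe sets. Those 88 probe sets had a median absolute log2 fold change of 0.06, none of them passed the limma test (7 had an unadjusted p under 0.05), and the range that holds their central 95% was -0.26 to 0.25. Whether signal near the top of the scale compresses differences in these 4 genes was not tested.

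Lcn2, a lipocalin that binds bacterial iron carriers and is made by neutrophils as well as stressed hepatocytes, was dim and variable. It read 5.65, 4.67 and 4.37 (log2) in controls and 4.87, 4.91 and 5.14 in low-protein livers. Control replicate 1 was the highest array and control replicate 3 the lowest, so that the controls spanned the low-protein values. The residual SD of 0.484 was above that of 98.6% of all probe sets. The log2 fold change was 0.07 (SE 0.284, 95% interval -0.58 to 0.72, adjusted p = 0.934), 0.45 without control replicate 1 and -0.19 without control replicate 3.

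Neutrophil markers were measured beside it. The calprotectin gene S100a9 read 7.01, 6.01 and 4.99 in controls, in the same order as Lcn2, and 5.58, 5.06 and 6.08 in low-protein livers. Its partner S100a8 read 6.04, 5.45 and 4.82 in controls and 5.18, 5.07 and 5.14 in low-protein livers. The other markers of these cells did not share that order. The antimicrobial peptide gene Camp read 4.05, 4.11 and 4.49 in controls and 4.49, 4.49 and 4.36 in low-protein livers. The receptor gene Csf3r read 3.10, 3.10 and 3.20 and then 3.04, 3.35 and 3.19. These other markers were dim, with means above only 10.2% (Cxcr2) to 36.8% (Camp) of all probe sets. Whether their order across arrays exceeds noise was not tested. Of the 8 neutrophil markers, 2 were highest on control replicate 1. The summed linear intensity of the 8 neutrophil markers ran from 151 to 273 in controls and from 161 to 181 in low-protein livers. That of 10 Kupffer cell and macrophage markers ran from 4585 to 5620 and from 5228 to 7319. Their part in the Lcn2 values was not tested.

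Socs3 read 4.00, 3.94 and 4.14 in controls and 4.29, 4.20 and 4.01 in low-protein livers. The probe set was dim, above only 32.0% of all probe sets by its mean, and the groups overlapped. Between diets the log2 fold change was 0.14 (SE 0.105, 95% interval -0.10 to 0.38, adjusted p = 0.562). Over 17 alternatives it ran from 0.07, with log2(intensity + 16), to 0.22, without low-protein replicate 3, and it was 0.08 without low-protein replicate 1. The deposited values carry no detection call, so whether a probe set this dim was above background cannot be read from them.

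**Figure D3:**
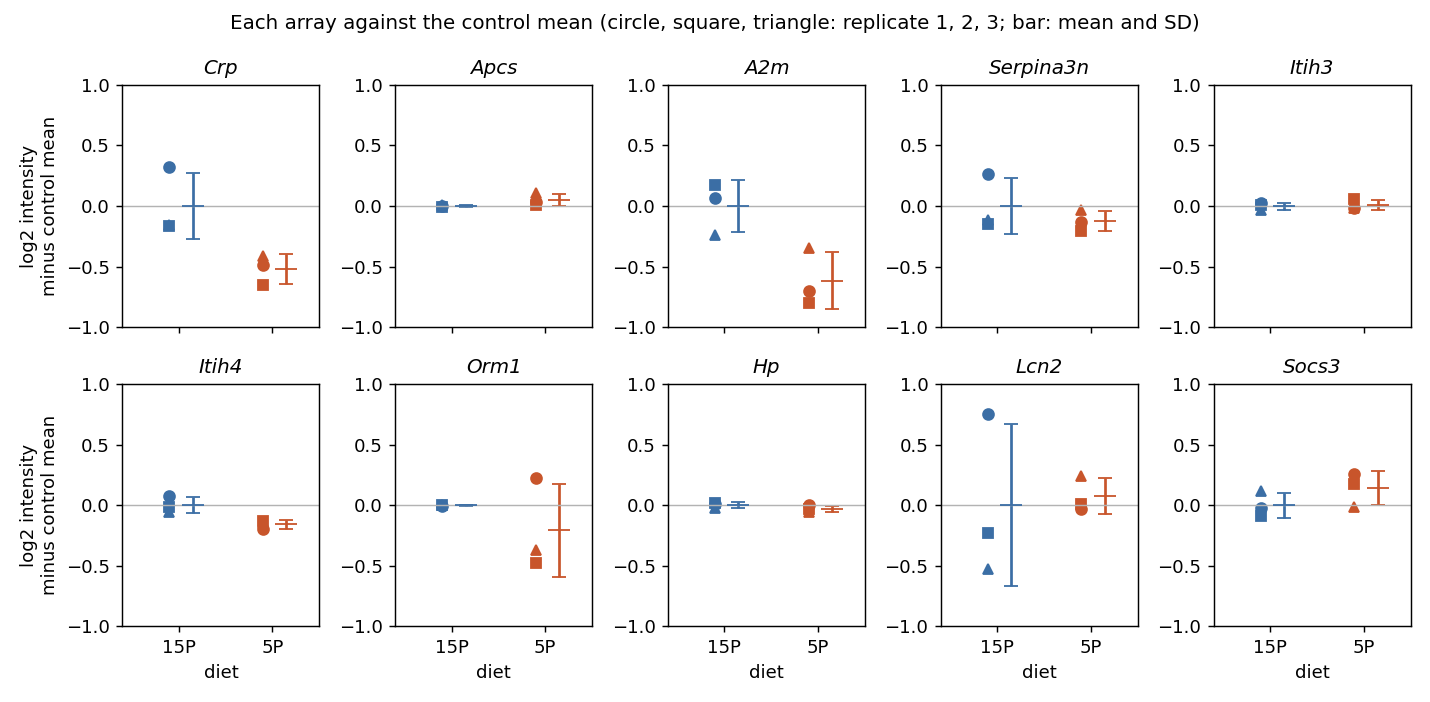
Log2 intensity minus the control mean (y axis) for each gene by diet, 15P or 5P (x axis), with circle, square and triangle for replicates 1 to 3 and, to the right of the points, the mean and SD of 3 arrays. The spread differs between genes: the controls of Orm1 coincide and those of Lcn2 span 1.28. The low-protein points of Crp, A2m, Itih4, Serpina3n and Hp all lie below 0, those of Hp by little.

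A control array stood high for several members. Control replicate 1 exceeded the mean of control replicates 2 and 3 by 1.13 (log2) for Lcn2, 0.48 for Crp and 0.40 for Serpina3n, and by 0.10 and 0.11 for A2m and Itih4. It was the highest of the 6 arrays for 4 members, Crp, Lcn2, Itih4 and Serpina3n. For Orm1, Hp, Apcs, Itih3 and Socs3 it differed from those controls by less than 0.05 in either direction. Over all probe sets 16.2% were highest on that array, and the median difference from the other controls was 0.01.

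The other positive acute phase products, a list of liver proteins that rise in inflammation, were also high on this array. Of 18 measured, 12 were highest on control replicate 1, and 16 lay above the mean of the other controls, with a median difference of 0.16. Over all probe sets 51.5% lay above that mean, and 53.4% of the 88 at least as bright as Apcs. Among the 18 products were Mt2A, a metallothionein (1.55 above), and Hamp, the iron hormone hepcidin (1.02). Others were Lbp, which binds bacterial lipopolysaccharide (0.77), and Serping1, the inhibitor of complement C1 (0.51). These 4 were picked after their values were seen. Cd14 and Steap4 were the exceptions, at -0.16 and -0.14. The 4 picked genes were all lowest among the controls on replicate 3. Mt2A and Hamp read 9.84 and 11.35 there against 12.12 and 12.96 on replicate 1. Lbp and Serping1 read 6.90 and 11.89 against 7.81 and 12.46. Genes of other lists were also highest on control replicate 1. They were 4 of 5 cholangiocyte markers, 4 of 8 stellate cell and fibroblast markers, 5 of 13 inhibitor and serpin relatives and 4 of 12 negative acute phase genes. Hepatocyte markers gave 3 of 10, neutrophil markers 2 of 8, and endothelial and red blood cell markers 0 of 7 and 0 of 5. Cytokine, receptor and transcription factor genes gave 7 of 33. Kupffer cell and macrophage markers gave 1 of 10, and T and B cell markers 1 of 8. Some genes stand in more than 1 of these lists, such as Serpina6, Mug1 and Itih2.

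**Figure D4:**
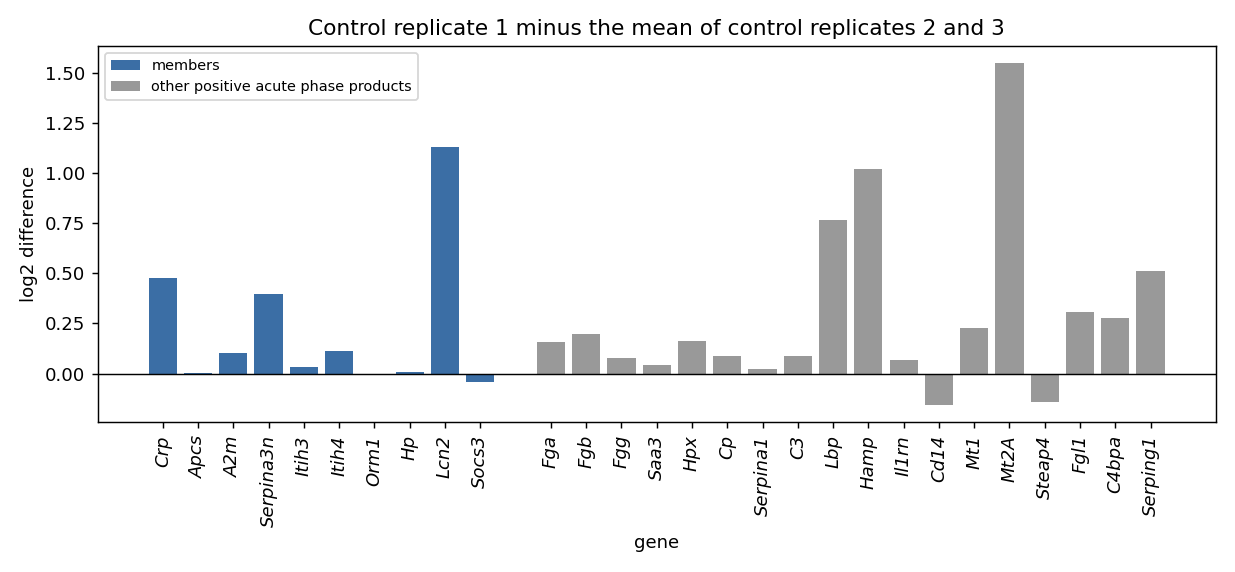
Difference in log2 intensity between control replicate 1 and the mean of control replicates 2 and 3 (y axis) for the 10 members (blue bars) and 18 other positive acute phase products (grey bars). Lcn2, Hamp and Mt2A have bars above 1, and the bars of Orm1, Hp and Apcs are near 0.

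Between diets, none of those 18 products, each as its brightest probe set, passed or had an unadjusted p under 0.05 (limma; counts of 0 and 0); 4 were higher and 14 lower, and their median was -0.05 (log2 fold change). The groups did not overlap for 1 higher and 2 lower genes (12.5% and 9.12% over all probe sets). Hamp read 12.96, 12.54 and 11.35 in controls and 11.67, 11.79 and 8.36 in low-protein livers, where low-protein replicate 3 was far below the rest. Its log2 fold change was -1.68 (SE 0.850, adjusted p = 0.387). Fga, a fibrinogen chain, had -0.17 (SE 0.091), and its dimmer second probe set had -0.44 (SE 0.169), with an unadjusted p = 0.0289 and an adjusted p = 0.264 (limma). Cd14, the lipopolysaccharide co-receptor, had -0.29 (SE 0.152), and Steap4, a metalloreductase, had -0.26 (SE 0.134).

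Negative acute phase proteins were likewise without a call: of 12 measured, 5 were higher and 7 lower, and 1 lower gene had an unadjusted p under 0.05 (limma). Over all probe sets 7.58% were lower at that level. The median log2 fold change of the 12 was -0.01. Alb, the albumin gene, named as a defining marker of hepatocytes and not for its p, read 14.38, 14.40 and 14.40 in controls and 14.40, 14.40 and 14.39 in low-protein livers, where it was the brightest of the list. Serpina6, the corticosteroid-binding globulin, had -0.73 (SE 0.266, adjusted p = 0.248), with overlapping groups. Apoa1, the main protein of high-density lipoprotein, had -0.19 (SE 0.096), and its low-protein arrays were all below the controls. Rbp4, the retinol carrier, had 0.06 (SE 0.081) and Mug1, a murinoglobulin, had -0.26 (SE 0.216).

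The genes that carry the acute phase signal were measured in a list of 33, comprising cytokines, receptors, kinases, SOCS relatives and transcription factors. None passed, with 15 higher and 18 lower. Of these, 2 and 5 had an unadjusted p under 0.05 (limma), where 7.83% higher and 7.58% lower did over all probe sets. The groups did not overlap for 3 higher and 6 lower genes (background 12.5% and 9.12%). Nr3c1, the glucocorticoid receptor, read 9.98, 9.61 and 9.82 in controls and 9.23, 9.17 and 8.94 in low-protein livers, with no overlap. Its log2 fold change was -0.69 (SE 0.124, adjusted p = 0.0739), while a dimmer second probe set had -0.22 (SE 0.198). Cebpa, a C/EBP factor of hepatocytes, read 10.11, 10.17 and 10.02 in controls and 9.70, 9.45 and 9.68 in low-protein livers, again with no overlap. Its log2 fold change was -0.49 (SE 0.101, adjusted p = 0.0932), and its 4 other probe sets had -0.47, -0.46, -0.35 and -0.29.

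Myd88, the adaptor of interleukin-1 and Toll-like receptors, had -0.35 (SE 0.094, adjusted p = 0.157), and Stat5b, a transducer of growth hormone signals, had -0.50 (SE 0.146, adjusted p = 0.178); both had groups that did not overlap. Stat3 itself had 0.04 (SE 0.106) and Il6st, the gp130 chain, -0.14 (SE 0.117). Each value is from the brightest of 2 probe sets for Stat3 and 4 for Il6st, and the others were not examined. Cebpb had -0.09 (SE 0.180). Il6, at 2.47 to 2.98 (log2) over all 6 arrays, was the dimmest probe set of the list. These 4 genes were named for their place in the pathway and not for their p.

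**Figure D5:**
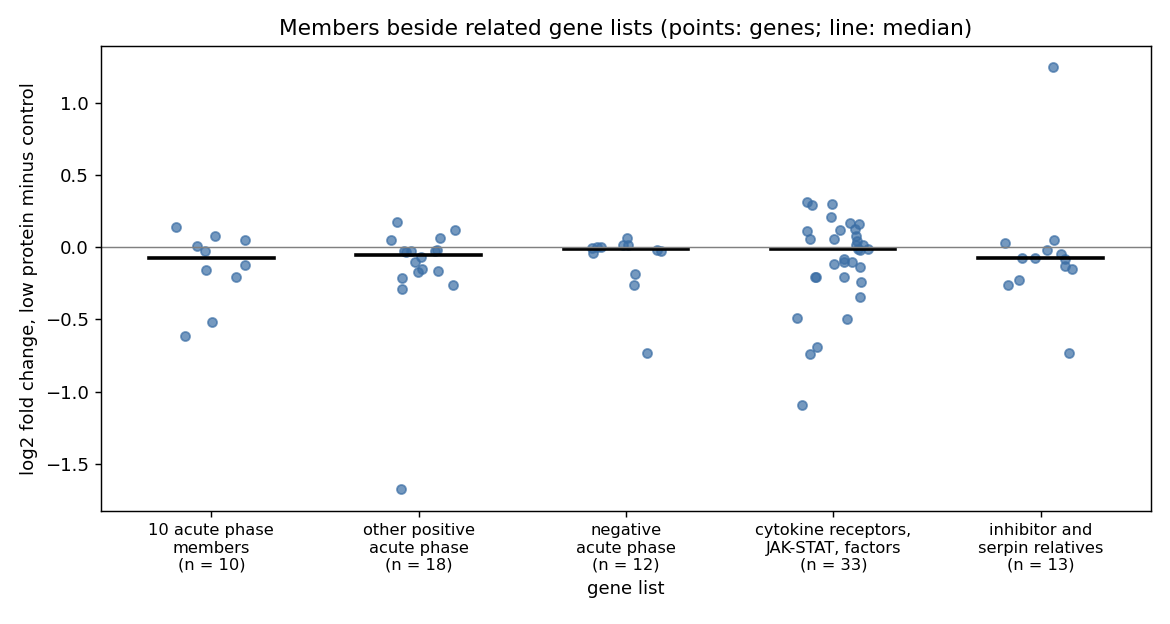
Log2 fold change, low protein minus control (y axis), of every gene (points) and the median (line) in the 10 members and 4 related lists (x axis). The medians are -0.08 for the members, -0.05 for other positive products, -0.01 for negative products, -0.02 for the signalling list and -0.07 for inhibitor relatives. The lowest point is Hamp and the highest is Serpina7.

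The promoters of 8 members were in the RefSeq table of build GRCr8, which gives 250 bases before and 50 after each gene's start. A STAT element (TTCNNNGAA, its own reverse complement), a C/EBP element (TTGCNNAA, both strands) and an NF-kB element of 10 letters (both strands) were searched in them. The STAT letters were in 2 of the 8, Itih4 and Serpina3n, and in 8.87% of all 33469 promoters of the table. The C/EBP letters were in 3 of the 8, Orm1, Lcn2 and Itih4, and in 10.6% of all. The NF-kB letters were in 0 of the 8 and in 0.362% of all, and 0 of the matched sites overlapped. Such matches describe letters in this window and show no binding.

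The 250 bases before the start are given 5′ to 3′ on the gene's strand, with matched letters in capitals, for Crp, which had the largest difference of the 8 and no match, and for Itih4, which had both elements. Crp lies at chr13:87693812-87694061 on the plus strand and Itih4 at chr16:6086735-6086984 on the plus strand.
Crp: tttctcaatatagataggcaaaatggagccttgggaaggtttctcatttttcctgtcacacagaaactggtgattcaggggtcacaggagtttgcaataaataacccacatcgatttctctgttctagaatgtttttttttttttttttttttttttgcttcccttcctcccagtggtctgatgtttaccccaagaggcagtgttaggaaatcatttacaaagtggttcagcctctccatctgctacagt
Itih4: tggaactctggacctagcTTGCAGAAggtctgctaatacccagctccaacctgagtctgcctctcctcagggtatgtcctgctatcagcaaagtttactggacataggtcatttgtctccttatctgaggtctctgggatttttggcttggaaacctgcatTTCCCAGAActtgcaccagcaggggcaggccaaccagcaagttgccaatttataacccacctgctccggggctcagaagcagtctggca

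Serpina3n held the same 9 letters as Itih4, TTCCCAGAA, at bases -123 to -115 from its start, where Itih4 had them at -89 to -81. The windows with 30 bases on either side show this match and the C/EBP matches of Orm1 (at -123 to -116, on the opposite strand) and Lcn2 (at -191 to -184), the pair whose values varied most between arrays of a diet. The windows lie at chr6:129088239-129088307 (plus strand), chr5:81788356-81788423 (plus strand) and chr3:36081934-36082001 (minus strand).
Serpina3n: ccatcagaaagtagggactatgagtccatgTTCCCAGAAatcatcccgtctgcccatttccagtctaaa
Orm1: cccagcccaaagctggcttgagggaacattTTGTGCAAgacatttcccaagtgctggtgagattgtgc
Lcn2: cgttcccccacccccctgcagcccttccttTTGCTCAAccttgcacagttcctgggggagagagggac
The promoters of A2m and Hp were not analysed here. The differences of Itih4 and Serpina3n, which share the STAT letters, were -0.16 and -0.12, and those of Orm1 and Lcn2 were -0.21 and 0.07.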

How the data were processed

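Liver RNA from 3 control and 3 low-protein samples was measured on Affymetrix rat arrays after 3' IVT labelling, per the labels' protocols. For every array the authors deposited an intensity per probe set, made with RMA per the submitters' processing notes, with the version not given in the sources used here. Values were linear and were log2-transformed with no pseudocount. Of 31099 probe sets, 57 controls were left out and no intensity filter was used. The platform annotation gave 1 symbol to 20826 probe sets, several to 436 and none to 9780; all 10 member symbols matched RefSeq (GRCr8).

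Low protein was compared with control in 1 limma fit (limma 3.58.1, R 4.3.3, lmFit and eBayes, two-sided, 8.376 total degrees of freedom), adjusted over 31042 probe sets by Benjamini-Hochberg, threshold 0.05. Fold changes are low protein minus control, SE is moderated and intervals are 95%. On simulated data the procedure recovered 99 of 100 probe sets changed by 1 (log2) and 100 of 100 changed by 2. That whole run gave 18 false calls. Changes smaller than 1, such as those of all members, were not simulated. The simulated noise was independent and normal, with the moderated variance of each probe set, which can be smaller than its measured spread. In the measured data Hamp (-1.68), Serpina7 (1.25) and Cish (-1.09) did not pass, so the recovery does not carry over to every gene. A listed gene stood as its probe set of highest mean. Other probe sets were examined only for the list genes named by their p. Named genes were all members and up to 4 of smallest p per list, from 4 related and 8 marker lists; others are defining cell markers or are said to have been picked otherwise. Members and lists were chosen with earlier results of these data known. Scaling, filter, pseudocount, prior variance, weights, block, left-out arrays and gene-level values were tried as alternatives. With 3 arrays against 3, an exact permutation test cannot go below 0.1. Figures were drawn with matplotlib 3.10.9.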

Additional observations from a re-analysis of the deposited data

How the results depend on the processing

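No member passed the threshold under any of 18 alternatives; the lowest adjusted p was 0.0817 (A2m with array weights). Of 178 member values under alternatives, 169 kept their direction and 9 turned, in 4 genes: Itih3 with median centring (-0.0177) and without single arrays (-0.0150 to 0.0220), Hp with 75th-percentile centring (0.0185), Lcn2 with array weights (-0.0171) and without single arrays (-0.19 to 0.45), and Serpina3n without single arrays (-0.198 to 0.00799). The members higher in low protein numbered 4 as deposited, 2 of the 8 left by the filter at the median intensity, which dropped Lcn2 and Socs3, and 2 to 5 without single arrays. The 41 probe sets past the threshold became 78 with median centring, 0 with log2(intensity + 16), 103 with a robust prior, 102 with array weights, 26 as genes of highest mean and 16 to 109 without single arrays; the causes were not tested. With the replicate block 6 passed. Same-numbered arrays did not deviate together (correlations -0.09, -0.03 and -0.10, beside -0.07 to 0.15 for other pairs). With 3 arrays per diet these correlations cannot settle whether the numbers mark pairs. Dim signal limits Socs3 and Lcn2.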

Other observations

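Cish and Socs2, relatives of Socs3 that inhibit growth hormone and cytokine receptors, varied more between arrays in both diets than Socs3 did. Both were also brighter, with means above 75.1% (Cish) and 73.1% (Socs2) of all probe sets against 32.0% for Socs3. The part of brightness in that spread was not tested. Cish read 8.47, 8.60 and 5.54 (log2) on control replicates 1 to 3 and 6.57, 4.88 and 7.87 on low-protein replicates 1 to 3, and its log2 fold change was -1.09 (SE 0.917). Socs2 read 7.78, 7.33 and 6.42 in controls and 6.47, 6.00 and 6.84 in low-protein livers (log2 fold change -0.74, SE 0.333). Socs1 was nearly level at 0.08 (SE 0.121). None of the 3 passed the test, and they were named after their values were seen.

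Among 13 inhibitor and serpin relatives none passed, with 3 higher and 10 lower. An unadjusted p under 0.05 (limma) was reached by 1 of each, against 7.83% higher and 7.58% lower over all probe sets. Serpina7, the thyroxine-binding globulin, read 9.09, 8.44 and 9.24 in controls and 9.51, 10.09 and 10.90 in low-protein livers, with no overlap (log2 fold change 1.25, SE 0.336, adjusted p = 0.156). Serpinf2, the plasmin inhibitor, had -0.23 (SE 0.127), and Serpina3c, a close relative of Serpina3n, had -0.15 (SE 0.097).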
